A study of Caenorhabditis elegans with 6 samples.

Results

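The 34 genes described here encode the machinery of the synaptic vesicle cycle and of the active zone, the patch of presynaptic membrane where vesicles fuse. They were taken as a list of gene names matched to the first name of each row in the deposited table, and all 34 were found among its 47063 gene rows. This list and the others below were chosen with earlier results of these data known. Their counts are therefore descriptive where they stand beside those of all genes. RNA sequencing was done on 6 libraries of Caenorhabditis elegans cells, 2 in each of 3 groups: BAG neurons carrying the wz31 mutation of pmk-3 (strain FQ705, pmk-3(wz31) with wzIs113[Pgcy-9::GFP]), wild-type BAG neurons (strain FQ424, wzIs113[Pgcy-9::GFP]), and wild-type non-BAG cells from the same strain FQ424. Every group carries the reporter, in which the gcy-9 promoter drives green fluorescent protein, and pmk-3 encodes a p38 MAP kinase. All cells came from dissociated embryos grown overnight in culture, so they are embryonic neurons in a dish rather than wired neurons in an animal, and fluorescent or non-fluorescent live cells were taken by flow sorting. The labels call the replicates of a group biological and name no culture for them, and the p-values therefore rest on the spread among these 6 libraries.

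BAG neurons are a pair of head neurons that sense oxygen and carbon dioxide and release glutamate and neuropeptides. In every nerve terminal a vesicle is filled with transmitter, carried to the active zone, docked, primed and fused by SNARE proteins when calcium enters, and its membrane is then recovered by endocytosis and used again. Several proteins of this cycle were first defined genetically in this worm through uncoordinated (unc) mutants, and many are conserved in mammals.

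The libraries held between 6181113 and 8596169 whole reads, recovered from the deposited normalized read counts. The targeted gene pmk-3 had 259.8 and 284 normalized counts in mutant BAG, 671 and 585 in wild-type BAG and 404 and 553 in non-BAG libraries. Its counts were lower in either mutant library than in any of the other 4, and as the labels do not describe the lesion of wz31, this checks them only in part. The sorted identity was read on 13 BAG marker genes: all 13 were higher in wild-type BAG neurons than in non-BAG cells, and their summed normalized count was 68820 and 82849 in mutant BAG, 66549 and 64002 in wild-type BAG and 2293 and 1498 in non-BAG libraries. One of them, gcy-9, is not independent of the sort, since its promoter drives the reporter. It supplied 35897 and 45158 of these counts in mutant BAG, 32105 and 38516 in wild-type BAG and 259 and 280 in non-BAG libraries. The non-BAG cells are a mixture of embryonic cell types that can include other neurons, and by inspection the great majority of sorted BAG cells were fluorescent, per the labels. In such bulk samples, fewer cells of a type and less RNA per cell cannot be told apart.

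In wild-type BAG neurons 27 of the 34 genes rose over non-BAG cells, none fell, and 7 did not pass the test. The median change was 2.46 on the log2(normalized count + 1) scale, the range 0.27 to 4.42. Among all 14211 genes tested, 10.2% rose and 4.01% fell, and the median change was -0.04. The test was limma across all genes and libraries, a gene passed at a Benjamini-Hochberg adjusted p below 0.05, and every change below is on this log2 scale with its SE. Together the 34 genes took 1.46% and 1.32% of all normalized counts in mutant BAG libraries, 1.29% and 1.23% in wild-type BAG libraries and 0.357% and 0.375% in non-BAG libraries. Both wild-type BAG libraries were above both non-BAG libraries for 33 of the 34 genes, a pattern that 28.4% of all genes tested also showed. The exception was snt-2. Under each of the 17 alternative settings run, between 23 and 28 of the 34 rose and none fell.

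**Figure D1:**
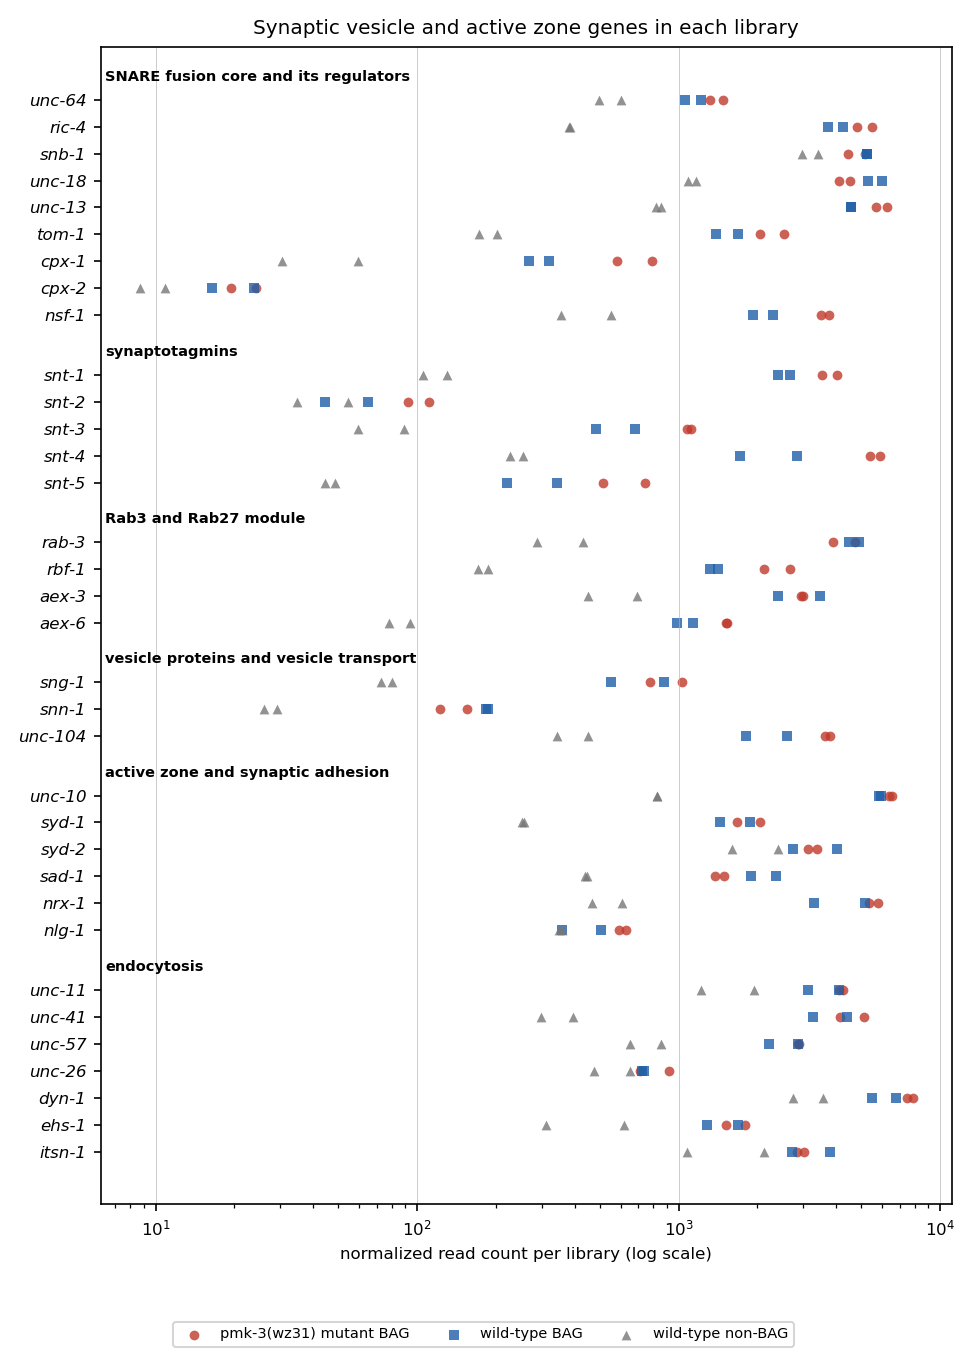
Normalized read count of each of the 34 genes in each of the 6 libraries (horizontal log axis), ordered by role; circles are mutant BAG, squares wild-type BAG and triangles non-BAG libraries. The BAG points lie to the right of the non-BAG points for all genes but snt-2, where wild-type BAG and non-BAG points intermingle, and the gaps are narrow for snb-1, syd-2, nlg-1 and unc-26.

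Markers of other cell types moved alongside these differences. Of 11 body wall muscle markers 10 were lower and 1 was higher in wild-type BAG neurons than in non-BAG cells. The one that was higher was the myosin heavy chain gene unc-54, and the other 10 summed to 6264 and 5866 in wild-type BAG libraries and 27658 and 22185 in non-BAG libraries. With unc-54 the sums were 42481 and 39118 in wild-type BAG libraries and 34895 and 28628 in non-BAG libraries. All 4 coelomocyte markers in the table were lower, with a summed count of 58.5 and 78.3 in wild-type BAG libraries and 720.1 and 465 in non-BAG libraries. Of 8 pharynx markers 1 was higher, with sums of 5617 and 2917 in wild-type BAG libraries and 4454 and 1768 in non-BAG libraries. The gene pha-4 alone supplied 5023 and 1174 of these counts in wild-type BAG and 4090 and 1115 in non-BAG libraries. Between the wild-type BAG replicates the myosin gene myo-2 went the other way, at 53.0 and 542. None of 6 hypodermis and 4 intestine markers tested passed. The intestine list summed to 71.3 and 63.2 in wild-type BAG libraries and 59.6 and 144 in non-BAG libraries. Of 7 glia markers 1 was higher and 1 lower, with sums of 1203 and 1199 in wild-type BAG libraries and 1788 and 1115 in non-BAG libraries. Of 15 tested markers of other neuron classes 3 were higher (unc-25, acr-2 and gcy-37) and 1 was lower (mec-3), and of 10 neuronal genes that act outside the synapse 7 were higher and none lower. The part of these other cells in the synaptic gene differences was not tested.

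The fusion core and its regulators were mostly higher in BAG neurons, while the vesicular SNARE and a complexin did not pass. Of these 9 genes 7 rose in wild-type BAG neurons, with a median change of 2.32 for the 9. The SNAP-25 gene ric-4, a SNARE of the plasma membrane, had 4819 and 5474 normalized counts in mutant BAG, 3738 and 4248 in wild-type BAG and 386 and 382 in non-BAG libraries. The non-BAG libraries were within 1.01 times of each other, and every BAG library lay far above them. The change of ric-4 was 3.37 ± 0.25 (limma adjusted p = 3.62e-05). The syntaxin gene unc-64, its plasma membrane partner, stood at 1484 and 1316 normalized counts in mutant BAG, 1217 and 1062 in wild-type BAG and 497 and 601 in non-BAG libraries. All 4 BAG libraries were above both non-BAG libraries, by a smaller margin than for ric-4. Its change of 1.05 ± 0.26 passed (limma adjusted p = 0.0227) but did not pass with only those groups in the fit (0.0715), nor without mutant replicate 1 or 2, wild-type BAG replicate 1 or 2, or non-BAG replicate 1 (limma adjusted p = 0.0661 to 0.123). Synaptobrevin snb-1, the SNARE of the vesicle membrane, was abundant everywhere, at 4453 and 5161 normalized counts in mutant BAG, 5259.7 and 5239 in wild-type BAG and 2965 and 3415 in non-BAG libraries. The wild-type BAG libraries were above the non-BAG libraries, yet the difference of 0.72 ± 0.26 did not pass (limma adjusted p = 0.0991).

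UNC-18, the Sec1/Munc18 protein that chaperones syntaxin, and UNC-13, the Munc13 protein that primes vesicles, are both essential for normal release. The gene unc-18 had 4540.4 and 4113 normalized counts in mutant BAG, 5976 and 5285 in wild-type BAG and 1087 and 1164 in non-BAG libraries. The gene unc-13 stood at 6257 and 5676 normalized counts in mutant BAG, 4554 and 4556 in wild-type BAG and 819 and 853 in non-BAG libraries. The wild-type BAG replicates of unc-13 were nearly equal, and neither gene's BAG values overlapped the non-BAG values. Their changes in wild-type BAG neurons were 2.32 ± 0.25 for unc-18 and 2.45 ± 0.25 for unc-13 (limma adjusted p = 0.000284 and 0.000194). Tomosyn, from tom-1, limits priming by occupying SNAREs, and tom-1 had 2046 and 2529 normalized counts in mutant BAG, 1394 and 1686 in wild-type BAG and 203 and 172 in non-BAG libraries. It rose by 3.03 ± 0.26 (limma adjusted p = 8.95e-05), the second largest rise of this role after ric-4.

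Complexins clamp and assist the assembled SNARE complex, and the worm has a pair of them. The level of cpx-1 was 792 and 579.6 normalized counts in mutant BAG, 267 and 318 in wild-type BAG and 59.6 and 30.4 in non-BAG libraries, which does not overlap between any of the groups. It rose by 2.75 ± 0.37 in wild-type BAG neurons (limma adjusted p = 0.0011). Counts of cpx-2 were near the lower limit of the data, at 19.4 and 24.1 normalized counts in mutant BAG, 16.4 and 23.7 in wild-type BAG and 10.8 and 8.68 in non-BAG libraries, and its difference of 0.96 ± 0.57 did not pass (limma adjusted p = 0.314). The lowest library of cpx-2 held 10 reads. NSF, from nsf-1, is the ATPase that takes used SNARE complexes apart. Its gene had 3748 and 3497 normalized counts in mutant BAG, 2293 and 1933 in wild-type BAG and 553 and 354 in non-BAG libraries and rose by 2.25 ± 0.29 (limma adjusted p = 0.00077).

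Synaptotagmins are vesicle proteins with paired C2 domains, and synaptotagmin 1 is the calcium sensor of fast release. Of the 5 genes tested 4 rose in wild-type BAG neurons. The largest rise of all 34 genes was that of snt-1, which had 4019 and 3519 normalized counts in mutant BAG, 2664 and 2407 in wild-type BAG and 129.9 and 105 in non-BAG libraries. No BAG library came near the non-BAG ones. Its change was 4.42 ± 0.26 (limma adjusted p = 9.90e-06), which placed it at rank 98 of the 14211 genes tested. Next in this family came snt-4, with 5369 and 5912 normalized counts in mutant BAG, 2830.4 and 1712 in wild-type BAG and 226 and 255 in non-BAG libraries. The 2 wild-type BAG libraries of snt-4 differed by 1.65 times, the widest replicate gap of any of the 34 genes in that group, and its change was 3.19 ± 0.30 (limma adjusted p = 0.000129).

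The genes snt-3 and snt-5 were less abundant per kilobase of exon. In these libraries snt-3 had 1077 and 1117 normalized counts in mutant BAG, 485 and 681 in wild-type BAG and 59.6 and 89.3 in non-BAG libraries, and its rise in wild-type BAG neurons was 2.96 ± 0.31 (limma adjusted p = 0.000243). Its relative snt-5 had 512 and 741 normalized counts in mutant BAG, 220.2 and 344 in wild-type BAG and 44.4 and 48.4 in non-BAG libraries, with a rise of 2.55 ± 0.34 (limma adjusted p = 0.000983). In both genes the 3 groups were separate, with mutant BAG highest and non-BAG lowest. The gene snt-2 stood apart from the family, at 111 and 92.0 normalized counts in mutant BAG, 64.9 and 44.5 in wild-type BAG and 34.7 and 54.6 in non-BAG libraries. Wild-type BAG and non-BAG values of snt-2 overlapped, and the difference of 0.30 ± 0.41 did not pass (limma adjusted p = 0.693). Its level is uncertain, since its exons share 23 bases with those of F42G9.1 on the other strand, a gene at 391.7% of its mean level, and whether the counting used strand is not known here. Exons of rbf-1, ehs-1 and unc-64 also share 11, 7 and 64 bases with isw-1, tbc-2 and set-25 on the other strand, which stood at 31.9%, 15.3% and 8.77% of their levels.

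Per kilobase of exon, snt-4 and snt-1 together made up most of the family's normalized counts in every BAG library. The share of snt-4 was 53% and 56.2% in mutant BAG, 50.2% and 37.1% in wild-type BAG and 49.8% and 49.6% in non-BAG libraries. The share of snt-1 was 30.5% and 25.7% in mutant BAG, 36.4% and 40.1% in wild-type BAG and 22% and 15.8% in non-BAG libraries. Thus snt-1 led snt-4 in 1 of the 2 wild-type BAG libraries and trailed it in the other, and their order there is within the replicate spread. The share of snt-2 was 0.824% and 0.657% in mutant BAG, 0.865% and 0.725% in wild-type BAG and 5.73% and 7.98% in non-BAG libraries.

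**Figure D2:**
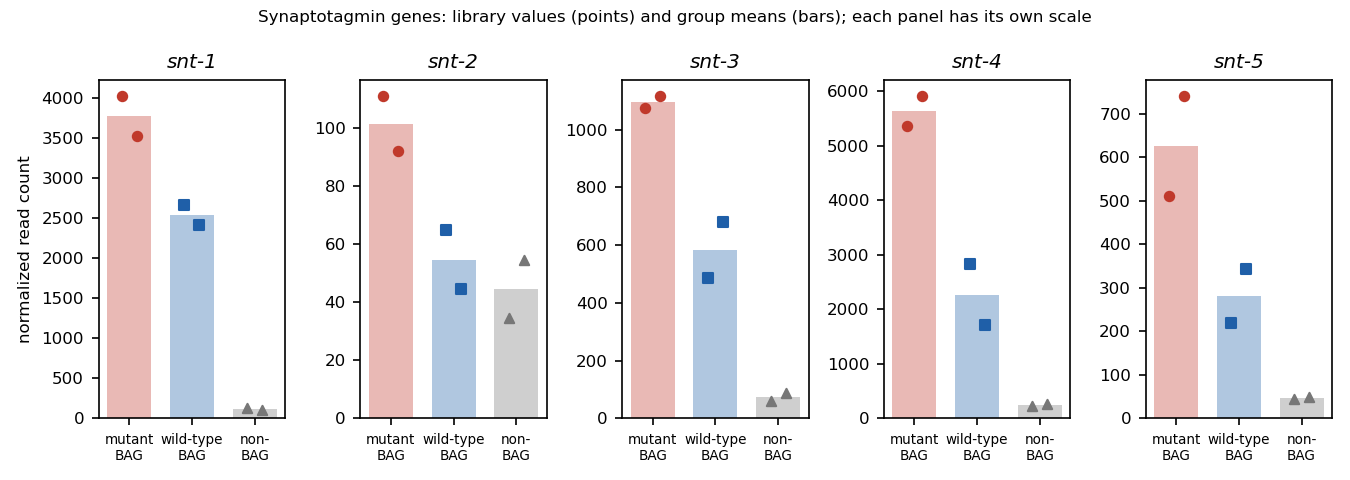
Normalized read counts of the 5 synaptotagmin genes, with points for libraries and bars for group means (n = 2 each), in mutant BAG, wild-type BAG and non-BAG order; each panel has its own vertical scale. All panels but that of snt-2 fall in steps across the groups, while in the snt-2 panel the wild-type BAG and non-BAG points overlap and no library exceeds 111 counts.

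Rab3 and Rab27 are small GTPases of vesicles that recruit effectors at the membrane. All 4 genes of this module rose in wild-type BAG neurons, with a median change of 3.27. RAB-3 itself, from rab-3, had 4733 and 3897 normalized counts in mutant BAG, 4876 and 4477 in wild-type BAG and 432 and 288 in non-BAG libraries, a rise of 3.72 ± 0.28 (limma adjusted p = 4.29e-05). The Rab27 gene aex-6 had 1524 and 1533 normalized counts in mutant BAG, 1137 and 982 in wild-type BAG and 78.0 and 93.6 in non-BAG libraries and rose by 3.61 ± 0.26 (limma adjusted p = 3.36e-05). The mutant replicates of aex-6 were within 1.01 times of each other, and its 3 groups were separate. Rabphilin, an effector that binds these GTPases, is encoded by rbf-1, with 2118 and 2663 normalized counts in mutant BAG, 1323 and 1419.9 in wild-type BAG and 186 and 170.5 in non-BAG libraries. The gene aex-3, for the exchange factor that activates both GTPases in this worm, had 2927 and 3001 normalized counts in mutant BAG, 3478 and 2395 in wild-type BAG and 695 and 451 in non-BAG libraries. The rises of rbf-1 and aex-3 were 2.94 ± 0.26 and 2.36 ± 0.31 (limma adjusted p = 8.95e-05 and 0.000818). Mutant and wild-type BAG values of aex-3 and of rab-3 overlapped.

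Among vesicle proteins and their carrier, all 3 rose. Synaptogyrin, a membrane protein of vesicles, is encoded by sng-1, which had 1029 and 775 normalized counts in mutant BAG, 879.8 and 554 in wild-type BAG and 72.6 and 80.0 in non-BAG libraries and rose by 3.18 ± 0.32 (limma adjusted p = 0.000181). Synapsin, which tethers vesicles in the reserve pool in mammals, is encoded by snn-1. Per kilobase it was among the least abundant of the 34, with 155 and 121.9 normalized counts in mutant BAG, 183 and 187 in wild-type BAG and 29.2 and 26.04 in non-BAG libraries, and rose by 2.70 ± 0.34 (limma adjusted p = 0.000689). The kinesin-3 motor UNC-104 carries vesicle precursors along the axon. Its gene had 3642 and 3790.2 normalized counts in mutant BAG, 2604 and 1812 in wild-type BAG and 450.5 and 342 in non-BAG libraries, a rise of 2.47 ± 0.28 (limma adjusted p = 0.000414).

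Genes of the active zone and of synaptic adhesion divided into 4 that rose and 2 that did not pass. The RIM gene unc-10, whose protein ties vesicles to calcium channels, had 6390.3 and 6566 normalized counts in mutant BAG, 5854 and 5946 in wild-type BAG and 828 and 825 in non-BAG libraries. Replicates of unc-10 differed by at most 1.03 times in every group, and its rise was 2.83 ± 0.24 (limma adjusted p = 8.79e-05). The RhoGAP-like gene syd-1, which starts presynaptic assembly, had 2046 and 1665 normalized counts in mutant BAG, 1876 and 1436 in wild-type BAG and 251 and 255 in non-BAG libraries and rose by 2.69 ± 0.27 (limma adjusted p = 0.000175). The gene syd-2, for the liprin-alpha scaffold that SYD-1 acts through, had 3395 and 3136 normalized counts in mutant BAG, 4033 and 2746 in wild-type BAG and 2394 and 1604 in non-BAG libraries. Its BAG and non-BAG libraries were close, and the difference of 0.76 ± 0.31 did not pass (limma adjusted p = 0.136).

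The kinase gene sad-1, which acts in neuronal polarity and presynaptic development, had 1496 and 1373 normalized counts in mutant BAG, 2348 and 1899.7 in wild-type BAG and 437 and 446 in non-BAG libraries. It rose by 2.25 ± 0.25 in wild-type BAG neurons (limma adjusted p = 0.000349), and its mutant values lay between those of the other groups. Neurexin and neuroligin are adhesion proteins that bind each other across the synapse, in mammals mainly from the presynaptic and postsynaptic side. The neurexin gene nrx-1 had 5767 and 5323 normalized counts in mutant BAG, 5164 and 3288 in wild-type BAG and 609 and 465 in non-BAG libraries and rose by 2.95 ± 0.30 (limma adjusted p = 0.000205). The neuroligin gene nlg-1 had 628 and 589.9 normalized counts in mutant BAG, 359 and 507 in wild-type BAG and 349.8 and 357 in non-BAG libraries. The lower wild-type BAG library of nlg-1 was barely above the higher non-BAG library, and the difference of 0.27 ± 0.28 did not pass (limma adjusted p = 0.575).

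Endocytic genes had the smallest median change of the roles, 1.22, with 5 of 7 past the threshold. Many of these proteins also serve endocytosis outside neurons, while the stonin UNC-41 and the AP180 protein UNC-11 are best known as adaptors at synapses. The gene unc-41 stood apart, with 5127 and 4139 normalized counts in mutant BAG, 4420.1 and 3255 in wild-type BAG and 297 and 393 in non-BAG libraries. All 4 BAG libraries lay far above the non-BAG libraries, and the rise was 3.47 ± 0.29 (limma adjusted p = 6.42e-05). The other adaptor gene, unc-11, stood at 4253 and 4087 normalized counts in mutant BAG, 4108 and 3131 in wild-type BAG and 1942 and 1222 in non-BAG libraries. Its rise of 1.22 ± 0.30 passed (limma adjusted p = 0.025), but not with only those groups in the fit (0.0835), nor without mutant replicate 1 or 2, wild-type BAG replicate 1 or non-BAG replicate 2 (limma adjusted p = 0.0667 to 0.142).

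Endophilin, which bends the membrane at the neck of the bud, is encoded by unc-57, with 2863 and 2874 normalized counts in mutant BAG, 2853 and 2211 in wild-type BAG and 853 and 649.7 in non-BAG libraries and a rise of 1.75 ± 0.27 (limma adjusted p = 0.00231). Its partner, the lipid phosphatase synaptojanin that uncoats vesicles, is encoded by unc-26. That gene had 922 and 713 normalized counts in mutant BAG, 738 and 723 in wild-type BAG and 653 and 477 in non-BAG libraries, and the difference of 0.39 ± 0.28 did not pass (limma adjusted p = 0.409). Thus endophilin and synaptojanin, which work together, differed in their call, although the difference between their changes was not tested.

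Dynamin, from dyn-1, cuts the vesicle free, and its gene was per kilobase the most abundant endocytic one in wild-type BAG neurons, with 7474 and 7866 normalized counts in mutant BAG, 6751 and 5488 in wild-type BAG and 3557 and 2749 in non-BAG libraries. The rise of 0.96 ± 0.28 was just past the threshold (limma adjusted p = 0.0474) and did not pass without mutant replicate 1 or 2, wild-type BAG replicate 1 or 2, or non-BAG replicate 2 (limma adjusted p = 0.0940 to 0.221). Nor did it pass with no filter on low values (0.0989), with only those groups in the fit (0.137), under TMM scaling (0.0608), by edgeR (0.0576) or with a minimum change of 1 log2 unit. The scaffold genes ehs-1 (Eps15) and itsn-1 (intersectin) work as a pair. Of these, ehs-1 had 1799 and 1518 normalized counts in mutant BAG, 1690.2 and 1289 in wild-type BAG and 618 and 311 in non-BAG libraries, with a rise of 1.75 ± 0.35 (limma adjusted p = 0.00886) that did not pass without wild-type BAG replicate 1 (0.0578). Levels of itsn-1 were 3003 and 2829 normalized counts in mutant BAG, 3807 and 2713 in wild-type BAG and 2114 and 1072 in non-BAG libraries, and the difference of 1.09 ± 0.35 did not pass (limma adjusted p = 0.0694). The non-BAG replicates of ehs-1 and itsn-1 differed by 1.99 and 1.97 times, the widest gaps of that group, with replicate 1 higher in both. Without non-BAG replicate 1 the change of itsn-1 was 1.58 and passed (limma adjusted p = 0.00717), and it also passed after quantile normalization (0.0413) and by DESeq2 (0.0386).

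**Figure D3:**
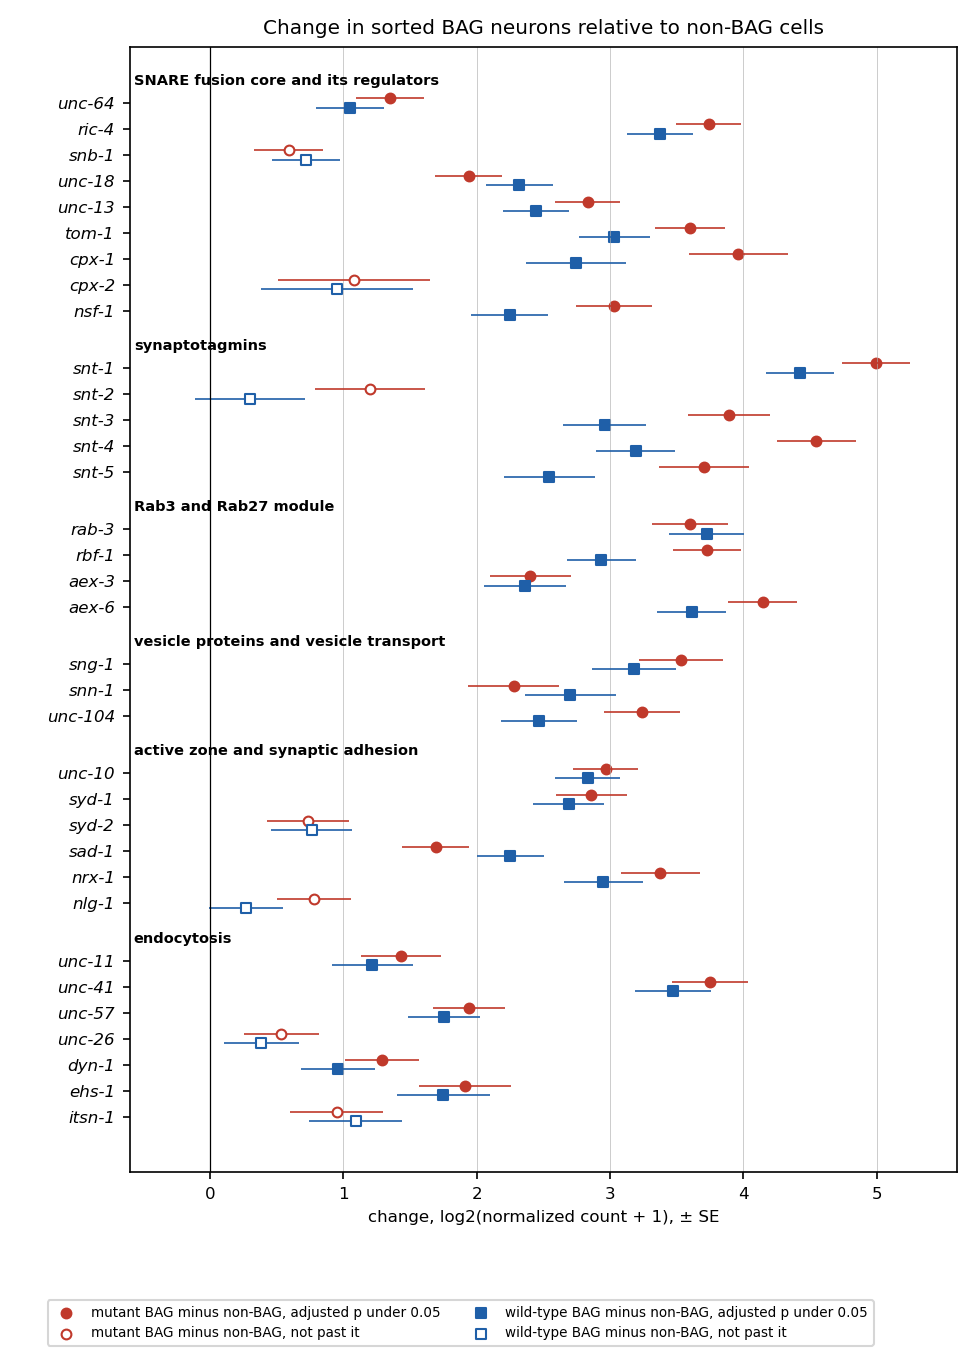
Change of each gene over non-BAG cells on the log2(normalized count + 1) scale, with SE, for mutant BAG neurons (circles) and wild-type BAG neurons (squares); filled symbols passed an adjusted p of 0.05. The gene snt-1 lies furthest to the right in both comparisons, and genes of several roles, among them snt-4, aex-6, rab-3, unc-41 and ric-4, also reach the right side. The genes snb-1, cpx-2, snt-2, syd-2, nlg-1, unc-26 and itsn-1 are open symbols in both comparisons, which share the non-BAG libraries.

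Abundance and enrichment did not follow the same order. Per kilobase of exon in wild-type BAG neurons, the most abundant gene was snb-1, at 6518 and 6492 normalized counts per kilobase, followed by ric-4 and rab-3. The gene ric-4 stood at 3017 and 3428 and rab-3 at 3340 and 3066 per kilobase, so their order is not resolved by the replicates. Next came dyn-1, at 2498 and 2031, and unc-18, at 2244 and 1984 per kilobase, which also overlapped. At the low end were snn-1, at 80.3 and 82.4, snt-2, at 32.9 and 22.6, and cpx-2, at 13.7 and 19.8 per kilobase. In non-BAG cells snb-1 again led, at 3674 and 4232 per kilobase, and dyn-1 followed at 1317 and 1018. Exon lengths came from a reference annotation, WBcel235 from Ensembl release 115, and serve as a scale for these comparisons only.

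The comparison of mutant with wild-type BAG neurons set strain FQ705 against strain FQ424. The mutation and the strain changed together, so their parts in a difference cannot be told apart. None of the 34 genes passed in either direction by limma, while 7 had an unadjusted p under 0.05, all of them higher in the mutant. An unadjusted p under 0.05 was also seen in 8.37% of all genes tested with a higher and 7.54% with a lower level in the mutant. Among all genes tested 0.486% rose and 0.352% fell, that is, 69 and 50 genes, with a split of 94 and 43 under TMM scaling and of 118 and 42 by edgeR. By edgeR none of the 34 passed, and by DESeq2 3 did. The median difference was 0.32 over the 34 genes, against 0.02 for all genes tested, with 27 of 34 differences above 0 and a range of -0.56 to 1.36. Of all 14211 genes tested, 7263 differences were above 0. The median was 0.465 for the 13 BAG markers, 0.44 for the 10 neuronal genes outside the synapse and 0.532 for 14 vesicle membrane and transporter genes. It was 0.029 for other presynaptic scaffolds, -0.154 for general membrane fusion, -0.013 for the endocytic core and -0.043 for axonal transport. An upward shift was thus not particular to the 34 genes. Both mutant libraries were above both wild-type BAG libraries for 19 genes and below them for 4, patterns seen in 26% and 24.3% of all genes tested. The median ratio of the higher to the lower replicate over the 34 genes was 1.12 in mutant BAG and 1.26 in wild-type BAG neurons.

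The values that differed most were those of synaptotagmins and of cpx-1. For snt-4 the mutant counts of 5369 and 5912 stood against 2830.4 and 1712 in wild-type BAG, a difference of 1.36 ± 0.30 with a 95% interval of 0.69 to 2.02 (limma adjusted p = 0.0709). The difference of snt-4 passed in 5 of the 17 alternative settings, over which it ranged from 0.99 to 1.72. Among these 5 were only those groups in the limma fit (0.0201), the replicate block in limma (0.0204) and DESeq2 (0.00336). It did not pass under TMM scaling, after quantile normalization or by edgeR. The gene cpx-1 had 792 and 579.6 in mutant and 267 and 318 in wild-type BAG, a difference of 1.22 ± 0.37 with an interval of 0.38 to 2.05 (limma adjusted p = 0.161). The corresponding difference of snt-5 was 1.16 ± 0.34, with an interval of 0.40 to 1.92 (limma adjusted p = 0.141). By DESeq2 cpx-1 and snt-5 had adjusted p = 0.0269 and 0.0371, and cpx-1 passed in limma with only those groups in the fit (0.0303). Of the 17 settings cpx-1 passed in 3 and snt-5 in 2. The other 4 with an unadjusted p under 0.05 were snt-3, rbf-1, nsf-1 and unc-104, with differences of 0.93 ± 0.31, 0.79 ± 0.26, 0.78 ± 0.29 and 0.77 ± 0.28 (limma adjusted p = 0.188, 0.176, 0.226 and 0.223).

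At the other end, the genes with both mutant libraries under both wild-type BAG libraries were sad-1, snn-1, unc-18 and snb-1. Their differences were -0.56 ± 0.25, -0.43 ± 0.34, -0.38 ± 0.25 and -0.13 ± 0.26, and none passed (limma adjusted p = 0.317, 0.586, 0.499 and 0.848). Several core genes lay close to 0: unc-10 at 0.14 ± 0.24 with a 95% interval of -0.41 to 0.68, rab-3 at -0.12 ± 0.28 with -0.76 to 0.52, aex-3 at 0.04 ± 0.31 with -0.65 to 0.72, and syd-2 at -0.03 ± 0.31 with -0.72 to 0.66. These intervals leave room for differences of 0.5 log2 units or more in at least 1 direction, so equal levels are not shown.

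**Figure D4:**
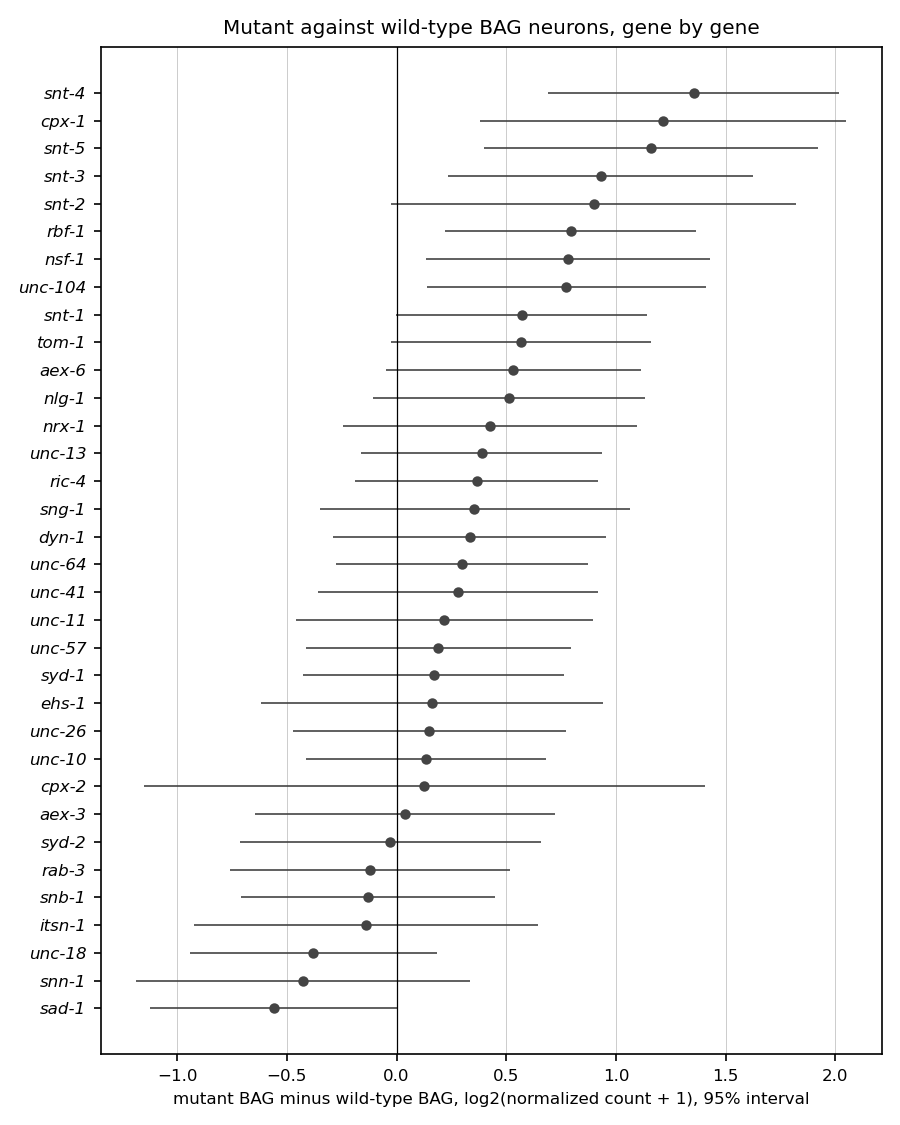
Difference between mutant and wild-type BAG neurons for each of the 34 genes on the log2(normalized count + 1) scale, with the 95% interval of the fit, from the highest to the lowest. Synaptotagmin genes and cpx-1 occupy the top 5 places, the intervals of 7 genes lie wholly above 0, and none passed the adjusted threshold.

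Markers of neurons and of other cell types were read in the same comparison. Of the 10 neuronal genes outside the synapse 1 rose in mutant over wild-type BAG neurons and none fell, and their summed count was 44741 and 58562 in mutant BAG libraries against 27194 and 23166 in wild-type BAG libraries. The gene that rose was egl-21, for a carboxypeptidase that trims neuropeptides, by 1.51 ± 0.27 (limma adjusted p = 0.0425). Another of the 10, egl-3, supplied 21802 and 31346 of the summed count in mutant BAG and 7889 and 7104 in wild-type BAG libraries. Its difference of 1.80 ± 0.35 did not pass (limma adjusted p = 0.0533). Of the 10 differences 8 were above 0, while unc-33 at -0.89 ± 0.31 and ric-19 at -0.42 ± 0.30 were below. Of the 13 BAG markers 2 rose, the FMRFamide-like peptide genes flp-10, by 2.17 ± 0.33, and flp-19, by 2.03 ± 0.32 (limma adjusted p = 0.0275 and 0.0301). The largest difference of the 13 was that of flp-17, 2.36 ± 0.47, which did not pass (limma adjusted p = 0.0567). Ribosomal RNA took 14.1% and 14.3% of reads in mutant BAG libraries and 11.5% and 10.4% in wild-type BAG libraries. Muscle markers had 0 of 11 past the threshold, and without unc-54 their sums were 6419 and 5759 in mutant BAG libraries and 6264 and 5866 in wild-type BAG libraries. None of the 8 pharynx markers passed, although all 8 differences were above 0 with a median of 0.74, and their sums were 5795 and 5990.1 in mutant BAG libraries and 5617 and 2917 in wild-type BAG libraries. The gene pha-4 supplied 4525 and 4485 of these counts in mutant BAG and 5023 and 1174 in wild-type BAG libraries. Of 6 hypodermis markers none passed, 5 differences were above 0 and the median was 0.59, with sums of 1593 and 1529 in mutant BAG libraries and 914 and 2368 in wild-type BAG libraries. None of 7 glia markers passed, with 4 differences above 0 and a median of 0.198. Intestine and coelomocyte markers went the other way, with 1 of 4 differences above 0 in each list, medians of -0.565 and -0.286, and none past the threshold. Over all 14211 genes tested 7263 differences were above 0. Of 15 markers of other neuron classes 11 differences were above 0, with a median of 0.67, and 1 passed. That one, gcy-37, a guanylate cyclase gene of oxygen-sensing neurons, changed by -3.26 ± 0.34 (limma adjusted p = 0.00906). Whether any of these bears on the synaptic gene values was not tested.

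Mutant BAG neurons were also set against non-BAG cells, the controls of the first comparison too. In the mutant 27 of the 34 rose, none fell, and 7 did not pass, beside 16.2% and 9.34% of all genes tested. The median change was 2.85 with a range of 0.54 to 4.99, and all 34 genes had both mutant libraries above both non-BAG libraries, as did 32.1% of all genes tested. The largest rises were those of snt-1, 4.99 ± 0.26, snt-4, 4.55 ± 0.30, and aex-6, 4.15 ± 0.26 (limma adjusted p = 3.64e-06, 9.90e-06 and 8.96e-06). The genes that did not pass were snb-1, cpx-2, snt-2, syd-2, nlg-1, unc-26 and itsn-1, with changes of 0.54 to 1.2. The calls of unc-64, unc-11 and dyn-1 were lost without mutant replicate 1 (limma adjusted p = 0.0642, 0.0795 and 0.0799) or mutant replicate 2 (0.0503, 0.0827 and 0.105), and that of ehs-1 without mutant replicate 1 (0.0542). Calls were gained by snt-2 without non-BAG replicate 2 (0.0430) and by syd-2 and itsn-1 without non-BAG replicate 1 (0.0378 and 0.00698), and by nlg-1 under TMM scaling (0.0428) and by edgeR (0.0481).

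Related genes outside the 34 were read from 5 further lists. Over non-BAG cells, wild-type BAG neurons had rises in 5 of 14 tested genes for vesicle membrane proteins and transporters, 2 of 16 for other presynaptic scaffolds, 2 of 21 for general membrane fusion, 1 of 16 for the clathrin and endocytic core and 2 of 15 for axonal transport. Among all genes tested 10.2% rose, so the counts of the lists other than that of vesicle membrane proteins and transporters lie near the background. One gene fell, in the general fusion list. The median changes were 1.04, 0.42, 0.28, 0.45 and 0.62, against 2.46 for the 34 genes and -0.04 for all genes tested. The 10 neuronal genes outside the synapse had a median of 2.24 and the 13 BAG markers one of 4.31. A median of this size was thus not particular to the synaptic genes. Without wild-type BAG replicate 1 the total of 12 that rose became 7, and it became 20 when non-BAG replicate 1 was left out.

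The vesicular glutamate transporter gene eat-4 had 946 and 951 normalized counts in mutant BAG, 309.7 and 487 in wild-type BAG and 35.7 and 34.7 in non-BAG libraries, a rise of 3.43 ± 0.31 (limma adjusted p = 0.000112). The acetylcholine genes cho-1, for choline uptake, and unc-17, for vesicular loading, rose by 3.13 ± 0.50 and 2.94 ± 0.38 (limma adjusted p = 0.00303 and 0.000777). The gene unc-17 had 375 and 312 normalized counts in mutant BAG, 121.5 and 132 in wild-type BAG and 20.6 and 11.8 in non-BAG libraries, and cho-1 had 189.7 and 139 normalized counts in mutant BAG, 54.8 and 83.3 in wild-type BAG and 4.33 and 10.5 in non-BAG libraries, with no overlap between BAG and non-BAG libraries. Exons of eat-4 overlap ZK512.2 on the other strand and those of unc-17 overlap cha-1 on the same strand, so these levels are uncertain. Of the scaffolds, the RIM-binding protein gene rimb-1 rose by 2.24 ± 0.28 and the calsyntenin gene casy-1 by 2.13 ± 0.29 (limma adjusted p = 0.000725 and 0.00125). Counts of rimb-1 were 1758 and 1959 in wild-type BAG and 315 and 485 in non-BAG libraries, and those of casy-1 15713 and 15329.6 in wild-type BAG and 3205 and 3946 in non-BAG libraries.

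In the general fusion list the SNAP-25 relative aex-4, known for its role in the intestine, had 76.5 and 153 normalized counts in mutant BAG, 90.4 and 138 in wild-type BAG and 0 and 1.86 in non-BAG libraries. One non-BAG library had no read and the other had 3, so no fold is given, and its exons overlap tag-18 on the other strand. The SNARE gene ykt-6 rose by 1.31 ± 0.27 and the Golgi syntaxin gene syx-16 changed by -1.81 ± 0.34 (limma adjusted p = 0.0111 and 0.00622). The small subunit gene of the AP2 adaptor, aps-2, rose by 1.40 ± 0.28 (limma adjusted p = 0.00972). In axonal transport the rises were those of the kinesin scaffold gene jip-1, 2.13 ± 0.26, and of unc-76, 1.17 ± 0.26, which acts in axon outgrowth (limma adjusted p = 0.000557 and 0.0154). The calls of ykt-6, aps-2 and unc-76 were lost without wild-type BAG replicate 1 (limma adjusted p = 0.0893, 0.0576 and 0.103), and that of unc-76 also without mutant replicate 1 or 2 (0.0582 and 0.0599) and with only those groups in the fit (0.0613).

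In mutant over wild-type BAG neurons none of the genes of these 5 lists rose and 1 fell. That gene, named after its values were seen, was dhc-1, the heavy chain of the dynein motor that carries cargo back to the cell body. It had 4284 and 4676 normalized counts in mutant BAG, 13526 and 12911 in wild-type BAG and 8342 and 12039.6 in non-BAG libraries, with both mutant libraries under every wild-type library. The change of -1.56 ± 0.29 was at the edge of the threshold (limma adjusted p = 0.0498) and did not pass with a pseudocount of 0.5 (0.0536), no filter (0.0753), TMM scaling (0.0666) or edgeR (0.0587), or without either mutant or either wild-type BAG library (0.138 to 0.528). The forward motor gene unc-104 differed by 0.77 ± 0.28, as given above.

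**Figure D5:**
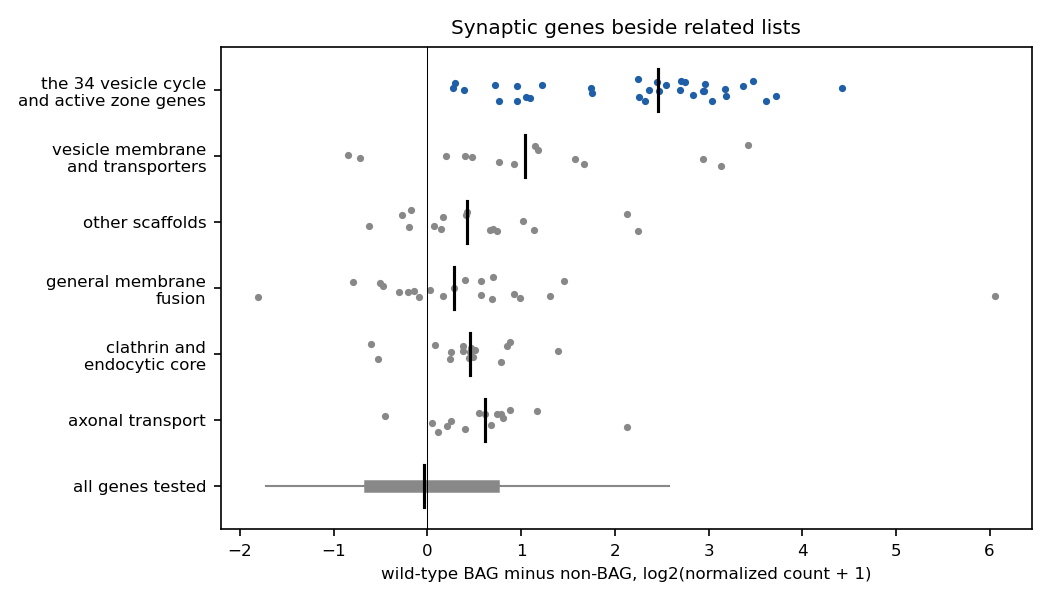
Change of wild-type BAG neurons over non-BAG cells on the log2(normalized count + 1) scale for the 34 genes and 5 related lists, 1 point per tested gene with a black bar at the median; for all genes tested the thick bar spans the 25th to 75th and the thin line the 5th to 95th percentile. The 34 genes have their median at 2.46, the lists between 0.28 and 1.04; the point past 6 is aex-4, whose fitted value depends on the added count.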

How the data were processed

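RNA was measured by sequencing in 6 libraries, 2 in each of 3 groups. The authors deposited 1 table of normalized read counts per gene (unit: signal, read counts divided by a factor per library); STAR, HTSeq and DESeq2 are named, without versions or roles, in the submitters' processing notes. The genome build, annotation and use of strand are not given in these sources. Each library's values were whole multiples of 1 read (100.0% within 0.01 read), so whole reads were recovered, between 6181113 and 8596169 per library.

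The 14211 of 47063 genes that reached 10 normalized counts in 2 or more libraries were tested with limma 3.58.1 (R 4.3.3) on log2(value + 1), a scale that understates the change of low genes. All 3 groups shared 1 fit (residual degrees of freedom: 3, without a block), with Benjamini-Hochberg adjustment over all tested genes. All 34 synaptic genes are named; of each related list, up to 3 genes with the largest change among those past the threshold in wild-type BAG against non-BAG cells are named. Members and lists were chosen with earlier results of these data known. On recovered reads, edgeR 4.0.16 called 1367 genes higher and 586 lower in wild-type BAG against non-BAG cells, 2325 and 1149 in mutant BAG against non-BAG cells, and 118 and 42 in mutant against wild-type BAG. The further alternatives were DESeq2 1.42.0, pseudocounts of 0.5 and 8, no filter or a mean of at least 50, TMM scaling, quantile normalization, a minimum change of 1 log2 unit, a replicate block, only the compared groups, and each library left out. The fit was also run on simulated counts drawn independently for each library, with the same spread in every group. Those counts hold no correlation between libraries, and no result here rests on them. Exon lengths and overlaps came from Ensembl release 115 (WBcel235), which may differ from the authors' annotation.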

Additional observations from a re-analysis of the deposited data

How the results depend on the processing

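The count of synaptic genes that rose over non-BAG cells stayed within 1.5 times of its value under every alternative: 23 to 31 in mutant BAG neurons and 23 to 28 in wild-type BAG neurons (27 in each as reported), and none fell. Between mutant and wild-type BAG neurons the count that rose was 0, against 2 with the replicate block (snt-4 and snt-5), 2 with only the groups compared, 3 by DESeq2, and 0 to 2 with 1 library left out. Over all genes tested, deviations of same-numbered libraries correlated at 0.46 between wild-type BAG and non-BAG, 0.046 between mutant and wild-type BAG and 0.004 between mutant BAG and non-BAG. The pair at 0.46 holds the groups of strain FQ424. No label ties same-numbered libraries to a shared culture or day, so whether they are paired cannot be told. The main fit leaves the block out, and calls that differ under the block depend on that choice. Under the block snt-2, syd-2, nlg-1 and itsn-1 also passed in mutant BAG neurons over non-BAG cells, and itsn-1 in wild-type BAG neurons.

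For the 5 related lists together, wild-type BAG over non-BAG had 12 genes higher, 20 with the replicate block and 7 to 20 with 1 library left out. Mutant over wild-type BAG had 0 higher and 1 lower: higher became 2 with the block, with only the groups compared and by DESeq2, and 0 to 2 with 1 library left out. Lower became 0 with a pseudocount of 0.5, no filter, TMM scaling or edgeR, and 0 to 1 with 1 library left out. Mutant BAG over non-BAG had 23 higher, 7 to 29 with 1 library left out, and 5 lower, 3 with no filter, TMM scaling, only the groups compared or edgeR, and 0 to 3 with 1 library left out.

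Signs of small, uncalled differences between mutant and wild-type BAG neurons turned: aex-3 was -0.015 after quantile normalization, and syd-2 was 0.082 with TMM scaling and 0.042 by edgeR. With 1 library left out they ranged from -0.125 to 0.377 for cpx-2, -0.262 to 0.019 for rab-3, -0.231 to 0.308 for aex-3, -0.023 to 0.362 for syd-1, -0.306 to 0.248 for syd-2, -0.035 to 0.335 for unc-26, -0.032 to 0.358 for ehs-1 and -0.385 to 0.103 for itsn-1. For snt-2 in wild-type BAG over non-BAG the range was -0.021 to 0.619.

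Over all genes, mutant against wild-type BAG had 69 higher and 50 lower. The counts were 148 and 73 with a pseudocount of 8, 118 and 42 by edgeR, 94 and 43 with TMM scaling, 46 and 43 with no filter, 377 and 312 by DESeq2, 374 and 282 with only those groups, and 342 and 343 with the block. Leaving out either mutant library or either wild-type BAG library left at most 3 higher and 6 lower, and leaving out a non-BAG library gave 257 to 298 higher and 245 to 257 lower. In wild-type BAG over non-BAG, 1444 and 570 became 938 and 323 with only those groups, 1836 and 1011 with the block, and 872 to 1449 and 266 to 760 with 1 library left out. In mutant BAG over non-BAG, 2300 and 1328 became 2687 and 1999 with the block and 1070 to 2294 and 302 to 1361 with 1 library left out. TMM scaling moved the median of all genes between mutant and wild-type BAG neurons to 0.127, and quantile normalization moved the medians over non-BAG cells to -0.226 in mutant and -0.138 in wild-type BAG neurons. The causes were not tested. With 2 libraries a group, low genes such as cpx-2 limit what can be seen.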
